A study of Homo sapiens with 8 samples.

Results

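A set of 10 genes of the BCL2 family was followed across sorted populations of 4 human tumour cell lines, the genes being BCL2, BCL2L1, MCL1, BAX, BAK1, BID, BIK, BBC3, PMAIP1 and BCL2L11. They were chosen by name, as the genes named alone by a probe set of the array, with the brightest probe set kept per gene. All 10 genes had a value, out of 18417 genes in all, and each had exactly 1 such probe set, so that 10 probe sets were described. The array was the Affymetrix Human Gene 1.0 ST array, which sums several short probes along a transcript into 1 log2 expression value.

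The lines were COLO741 and HCT116, both labelled colon carcinoma, HT29, labelled a colon adenocarcinoma, and SW620, labelled as a lymph node metastasis. For SW620 the text on the design gives another name, SW480, and SW620 is used here as on the samples. Each line was grown in serum-containing RPMI medium with antibiotics, with no drug or genetic change named, and was sorted with an antibody against ABCB5, a transporter of the ATP-binding cassette family. Both sorted fractions of every line, ABCB5-positive and ABCB5-negative by label, were hybridised to 1 array each, which makes 8 arrays and 4 pairs. The series title ties ABCB5 to resistance against apoptosis, and the comparison of the sorted populations asked whether the family's transcripts go with the label. The 2 arrays of a line are its 2 sorted populations and are not stated to be separate cultures, so p-values between lines measure only the spread between these arrays, which may be technical.

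BCL2 family proteins decide whether the outer mitochondrial membrane is opened to release cytochrome c. BAX and BAK1 are the effectors that form the pore, BCL2, BCL2L1 (BCL-XL) and MCL1 hold them in check, and the BH3-only proteins BID, BIK, BBC3 (PUMA), PMAIP1 (NOXA) and BCL2L11 (BIM) start the process by binding the others. Much of this control acts on the proteins, which the arrays do not measure. In such bulk RNA, fewer cells of a kind and less RNA per cell cannot be told apart.

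The labels of the samples were checked against transcripts first. In COLO741 the epithelial marker EPCAM was under background, at log2 levels of 6.43 and 5.36 against 13.32 to 13.77 in the other lines, and 6 of 13 colon epithelial markers were above background on each of its arrays, against 8 to 13 on the other arrays. Background here is 7.499, the 95th percentile of 360 probe sets of olfactory receptor genes, which are used in the nose. All 9 measured melanocyte markers were above background in COLO741, and 1 to 4 of the 9 on the arrays of the other lines. The ABCB5 transcript in COLO741 was at 9.42 on the array labelled ABCB5-negative and at 8.14 on the array labelled ABCB5-positive, opposite to the labels, and on the 6 arrays of the other lines it lay between 5.24 and 5.69, under background. In SW620, 10 of 13 phagocyte and leukocyte markers were higher on the array labelled ABCB5-positive, with a median difference of 0.64.

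The family differed more between the lines than between the sorted populations. Gene by gene, the span of line means was 1.98 (BAK1) to 18.1 (BCL2L1) times the largest difference within a line. Such ratios over all genes tested are not given here. The mean levels of the 4 lines spanned 0.52 (BID) to 2.86 (PMAIP1) log2 units, while the arrays of 1 line differed by at most 0.43. With limma's moderated F-test over the 4 lines, all 10 genes passed an adjusted p of 0.05, where 67.2% of the 16910 genes tested passed, so that such a call is common on these arrays. The median span of the 10 genes was 0.97, against 0.64 over all genes tested. The genes tested include ones with a mean under background, while all 10 genes had a mean above it. Without SW620 the test passed for 7 genes (lost for BAK1, BID and BBC3), where 58.3% of all genes passed, and without HT29 for 7 (lost for MCL1, BAX and BID), where 55.3% did. Without COLO741 or without HCT116 it passed for all 10, where 59% and 54.4% of all genes did.

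In pairs of lines, HT29 and SW620 differed in 9 of 10 genes, where 40% of all genes tested passed, and 4 of these 9 calls were left without the ABCB5-positive HT29 array. SW620 and COLO741 differed in 7 (47% of all genes), of which 6 held with each array left out in turn. HT29 and COLO741 differed in 6 (45.3%), and HCT116 and SW620 in 6 (38.9%). HCT116 differed from COLO741 in 5 (45.9%) and from HT29 in 5 (39%). Of these 38 calls, 21 held with each array left out in turn and 17 were lost without at least 1 array. Against the mean of the other 3 lines, COLO741 differed in 7 of the 10 genes, where 49.7% of all genes tested passed.

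**Figure D1:**
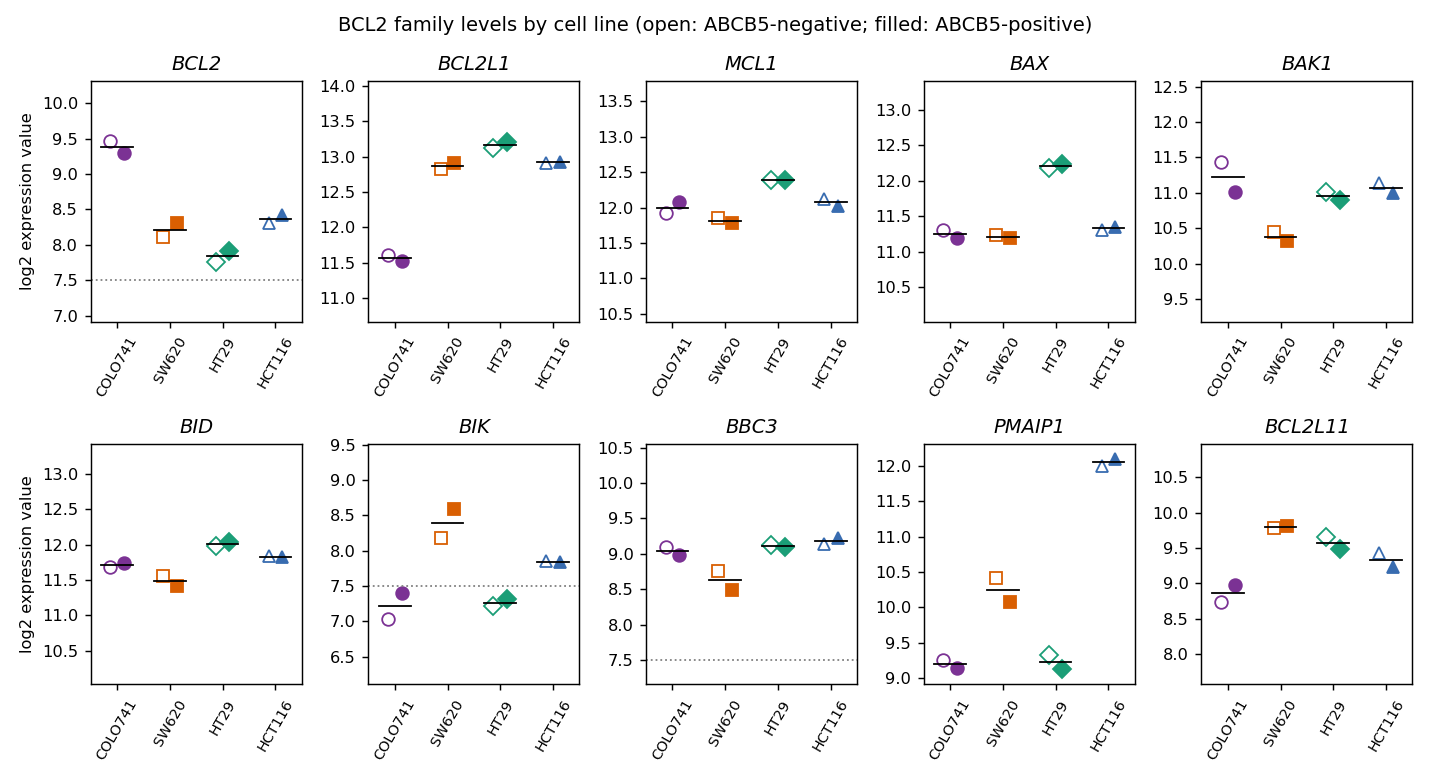
Log2 expression value (vertical axis) of each of the 10 genes in the 4 lines (horizontal axis), with open symbols for arrays labelled ABCB5-negative, filled symbols for ABCB5-positive and a bar at the mean of both. Every panel spans the same number of log2 units, and the dotted line is the background level of 7.499. PMAIP1 stands out in HCT116, at up to 12.10, and BCL2 in COLO741, at 9.47 and 9.29.

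Among the genes that hold the pore in check, BCL2 and BCL2L1 differed in opposite directions between COLO741 and the other lines. BCL2, named for the B-cell lymphoma translocation that exposed it, measured 9.47 and 9.29 in COLO741 on the ABCB5-negative and ABCB5-positive arrays, in that order. It measured 8.10 and 8.31 in SW620, 7.76 and 7.91 in HT29, and 8.31 and 8.42 in HCT116. Both COLO741 arrays lay above the other 6, and for 34.6% of all genes tested both COLO741 arrays lay above or below the other 6. The BCL2 difference of COLO741 from the mean of the other 3 lines was 1.24 ± 0.09 (log2, SE), or 2.37-fold (adjusted p from limma 7.64e-05). Among those 3 lines BCL2 was lowest in HT29, 0.37 ± 0.11 below SW620 (adjusted p from limma 0.0428) and 0.53 ± 0.11 below HCT116 (0.0111), calls that were lost on leaving out any 1 of 6 and any 1 of 4 of the 8 arrays, respectively. HCT116 and SW620 did not differ beyond their spread (0.16 ± 0.11, 95% interval -0.11 to 0.44).

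The BCL2 promoter is shown because this gene set COLO741 apart upwards. The 250 bases before the RefSeq start, chr18:63319770-63320019 on the minus strand of GRCh38.p14, are printed below. Capitals mark the match to the half-site of the cAMP response element (TGACG or its reverse complement CGTCA), which 21.2% of all 35116 windows of this length hold.
BCL2: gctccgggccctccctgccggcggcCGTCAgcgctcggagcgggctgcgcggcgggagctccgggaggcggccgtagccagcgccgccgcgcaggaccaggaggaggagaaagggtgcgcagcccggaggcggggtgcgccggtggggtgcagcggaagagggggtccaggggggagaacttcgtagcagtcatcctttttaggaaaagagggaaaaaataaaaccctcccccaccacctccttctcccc
No CACGTG or CATGTG, the letters bound by the melanocyte factor MITF, was found in this window. For scale, 6.34% of the windows held CACGTG and 9.42% held CATGTG or its reverse complement. MITF itself measured 12.79 and 12.73 in COLO741 and 7.17 to 7.86 elsewhere. Sites outside this window were not searched, binding was not measured, and the part of MITF in the BCL2 level was not tested.

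BCL2L1, whose long form BCL-XL is a main guard of epithelial and many tumour cells, ran the other way. It measured 11.61 and 11.53 in COLO741, 12.82 and 12.91 in SW620, 13.12 and 13.20 in HT29, and 12.91 and 12.92 in HCT116. The COLO741 arrays were below the other 6, and the 3 other lines were close together. The BCL2L1 difference of COLO741 from the other 3 lines was -1.41 ± 0.07 (log2, SE), or 2.66-fold lower (adjusted p from limma 1.47e-05). HT29 was 0.30 ± 0.09 above SW620 (adjusted p from limma 0.0366, lost on leaving out any 1 of 6 arrays). HCT116 against HT29 did not pass (adjusted p from limma 0.0726, 95% interval -0.46 to -0.03), nor did HCT116 against SW620 (0.662, -0.16 to 0.27). The probe set does not separate the long and short splice forms of BCL2L1, which act in opposite ways.

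**Figure D2:**
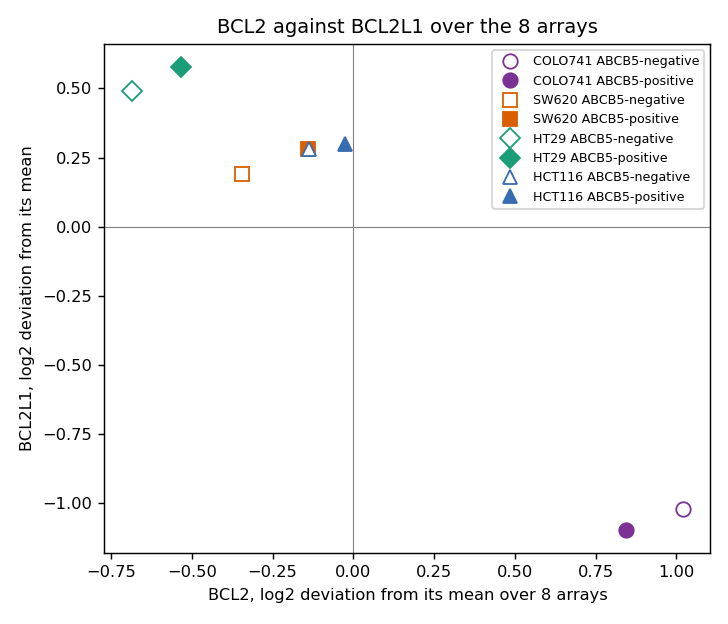
Deviation of BCL2 (horizontal axis) and of BCL2L1 (vertical axis) from each gene's mean over the 8 arrays, in log2 units, 1 symbol per array. The COLO741 arrays sit at the lower right, with BCL2 at 9.47 and 9.29 and BCL2L1 at 11.61 and 11.53, and the HT29 arrays, with BCL2 at 7.76 and 7.91 and BCL2L1 at 13.12 and 13.20, at the upper left.

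MCL1, a short-lived guard that cells replace quickly, had line means that spanned 0.57 log2 units, near the median of 0.64 over all genes tested. It measured 11.92 and 12.08 in COLO741, 11.85 and 11.79 in SW620, 12.39 and 12.39 in HT29, and 12.12 and 12.03 in HCT116. Both HT29 arrays lay above the other 6. The MCL1 level of HT29 exceeded that of SW620 by 0.57 ± 0.10 (log2, SE; adjusted p from limma 0.00394), which held with each array left out in turn. HT29 also exceeded COLO741 by 0.39 and HCT116 by 0.31, and those calls were lost on leaving out any 1 of 3 and any 1 of 6 arrays. COLO741 as against the other 3 lines did not differ beyond the spread for MCL1 (-0.09 ± 0.08, 95% interval -0.28 to 0.10).

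The effectors BAX and BAK1, which can stand in for each other at the membrane, had different patterns. BAX measured 11.31 and 11.19 in COLO741, 11.23 and 11.19 in SW620, 12.18 and 12.23 in HT29, and 11.31 and 11.35 in HCT116. Both HT29 arrays lay above the other 6, which spanned 11.19 to 11.35, and HT29 lay outside the other lines for 28.1% of all genes tested. The BAX level of HT29 was 0.99 ± 0.09 (log2, SE) above SW620, or 1.99-fold (adjusted p from limma 2.51e-04). It was 0.96 above COLO741 (2.03e-04) and 0.88 above HCT116 (4.52e-04), also by limma, and all 3 calls held with each array left out in turn. None of the 3 pairs without HT29 passed for BAX, with differences of 0.04 to 0.12. Against the mean of the other 3 lines BAX was lower in COLO741 (-0.33 ± 0.07, adjusted p from limma 0.00882), and that call was lost without the ABCB5-positive COLO741 array (-0.26, adjusted p 0.0636).

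The BAX promoter is shown for its repeated motif. In the 250 bases before the RefSeq start, chr19:48954625-48954874 on the plus strand of GRCh38.p14, the E-box CACGTG, the same on both strands, occurs 4 times, in capitals, and 1 match overlaps a TGACG.
BAX: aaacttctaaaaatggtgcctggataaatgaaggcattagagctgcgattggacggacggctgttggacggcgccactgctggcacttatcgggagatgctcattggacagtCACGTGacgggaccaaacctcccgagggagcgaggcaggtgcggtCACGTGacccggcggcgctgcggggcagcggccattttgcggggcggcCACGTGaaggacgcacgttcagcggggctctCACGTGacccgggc
BBC3 had 1 CACGTG in its window, and 2 of the 5 windows of BID had 1 each, while the windows of BCL2, BCL2L1, BAK1, PMAIP1 and BCL2L11 had 0. These matches are letters only, and binding was not measured.

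BAK1 was low in SW620. It measured 11.44 and 11.01 in COLO741, 10.44 and 10.32 in SW620, 11.01 and 10.90 in HT29, and 11.15 and 11.003 in HCT116. Both SW620 arrays lay below the other 6, which overlapped, and SW620 lay outside the range of the other lines for 29.1% of all genes tested. The BAK1 level of SW620 was 0.85 ± 0.11 (log2, SE) below COLO741, or 1.80-fold lower (adjusted p from limma 9.64e-04). It was 0.69 below HCT116 (adjusted p from limma 0.00308) and 0.58 below HT29 (0.00623), the last lost without the ABCB5-positive HT29 array. No pair among COLO741, HCT116 and HT29 passed, with adjusted p from limma of 0.0875 to 0.464, the lowest for HT29 minus COLO741 (95% interval -0.53 to -0.0094). In COLO741 against the other 3 lines the BAK1 difference was 0.42 ± 0.09 (adjusted p from limma 0.00740), and without the ABCB5-negative COLO741 array it was 0.27 (0.0534).

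**Figure D3:**
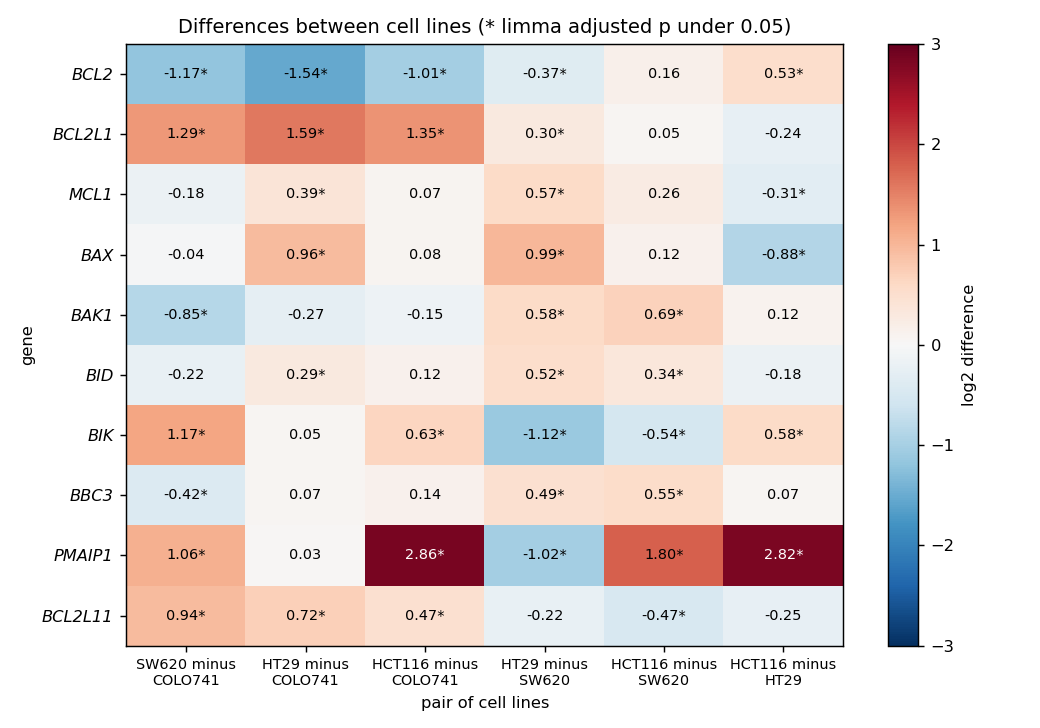
Log2 difference between each pair of cell lines (columns) for each of the 10 genes (rows), the first line named minus the second, with red for higher, blue for lower and a star where limma's adjusted p was under 0.05. PMAIP1 in HCT116 has the largest values, 2.86 above COLO741 and 2.82 above HT29.

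Of the BH3-only genes, PMAIP1 had the widest range of the 10. PMAIP1 encodes NOXA, which binds MCL1 and is a known target of stress-response factors. It measured 9.25 and 9.14 in COLO741, 10.42 and 10.08 in SW620, 9.33 and 9.13 in HT29, and 12.003 and 12.10 in HCT116. HCT116 was highest, SW620 next, and COLO741 and HT29 lowest and overlapping. HCT116 lay outside the range of the other lines for 26.9% of all genes tested. The PMAIP1 level of HCT116 was 7.24-fold that of COLO741 (2.86 ± 0.12, log2, SE; adjusted p from limma 8.09e-06) and 7.07-fold that of HT29 (2.82 ± 0.12; 1.33e-05). It was 3.48-fold that of SW620 (1.80 ± 0.12; adjusted p from limma 8.39e-05). SW620 in turn was 2.08-fold above COLO741 and 2.03-fold above HT29, with adjusted p from limma of 5.46e-04 and 8.01e-04, while HT29 and COLO741 differed by 0.03 (95% interval -0.25 to 0.32). These 5 PMAIP1 calls held with each array left out in turn.

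The PMAIP1 promoter is shown because the gene had the widest range. The 250 bases before its RefSeq start, chr18:59899746-59899995 on the plus strand of GRCh38.p14, held 4 GC boxes (GGGCGG or its reverse complement CCGCCC). Nearer the start they held 1 cAMP response half-site (read here as CGTCA). All are in capitals.
PMAIP1: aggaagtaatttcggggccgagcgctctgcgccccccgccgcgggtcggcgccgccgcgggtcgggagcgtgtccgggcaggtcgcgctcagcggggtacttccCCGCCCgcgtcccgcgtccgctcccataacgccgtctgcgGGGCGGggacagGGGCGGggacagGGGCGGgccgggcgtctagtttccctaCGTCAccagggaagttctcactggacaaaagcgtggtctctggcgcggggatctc
GC boxes were found in 42.6% of all windows. Sites outside this window were not searched.

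BBC3, which encodes PUMA, another binder of the guards, had a different order of lines from PMAIP1. It measured 9.10 and 8.99 in COLO741, 8.76 and 8.49 in SW620, 9.12 and 9.10 in HT29, and 9.14 and 9.22 in HCT116. SW620 was lowest and the other 3 lines lay close together. The BBC3 level of SW620 was 0.55 ± 0.11 (log2, SE) below HCT116 (adjusted p from limma 0.00744), 0.49 below HT29 (0.0120) and 0.42 below COLO741 (0.0185). Each of these was lost without the ABCB5-positive SW620 array, and also without 1 or 2 other arrays taken singly. HCT116 and HT29 differed by 0.07 for BBC3 (95% interval -0.19 to 0.33). MDM2, a ubiquitin ligase on the list of regulators, chosen after its values were seen, measured 12.67 and 12.77 in HCT116 and 12.04 to 12.46 on the 6 other arrays. The MDM2 difference of HCT116 from HT29 had an adjusted p from limma of 0.00307 and that from SW620 one of 0.00296. That from COLO741 was 0.32 (adjusted p from limma 0.0341), lost on leaving out any 1 of 6 arrays.

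BCL2L11, which encodes BIM, a strong binder of every guard, was lowest in COLO741. It measured 8.74 and 8.98 in COLO741, 9.79 and 9.81 in SW620, 9.66 and 9.49 in HT29, and 9.42 and 9.23 in HCT116. The COLO741 arrays were below the other 6, and the other lines followed each other without overlap. The BCL2L11 difference of COLO741 from the other 3 lines was -0.71 ± 0.10 (log2, SE; adjusted p from limma 0.00144). SW620 exceeded COLO741 1.92-fold (adjusted p from limma 0.00115) and HT29 exceeded it 1.64-fold (0.00373), and both held with each array left out in turn. HCT116 exceeded COLO741 by 0.47 and fell short of SW620 by 0.47, calls lost on leaving out any 1 of 2 and any 1 of 4 arrays, and HT29 against SW620 or HCT116 did not pass.

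BID, which caspase-8 cuts to link death receptors to mitochondria, ranged least. It measured 11.69 and 11.74 in COLO741, 11.56 and 11.42 in SW620, 11.98 and 12.03 in HT29, and 11.84 and 11.82 in HCT116. HT29 was highest and SW620 lowest, without overlap. HT29 exceeded SW620 by 0.52 ± 0.09 (log2, SE; adjusted p from limma 0.00487), a call lost without the ABCB5-positive HT29 array. BID, MCL1 and BAX had the same order of line means, HT29 above HCT116, then COLO741, then SW620, and COLO741 against SW620 or HCT116 passed for none of the 3 genes. For BID the arrays of COLO741 and SW620 did not overlap, and that difference had an adjusted p from limma of 0.0921 (95% interval of SW620 minus COLO741 -0.44 to -0.0008).

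BIK, a BH3-only gene of the endoplasmic reticulum and mitochondria, was the only 1 of the 10 with arrays under background. It measured 7.03 and 7.40 in COLO741 and 7.21 and 7.32 in HT29, all under the background level of 7.499. It measured 8.18 and 8.59 in SW620 and 7.85 and 7.84 in HCT116, all above it. SW620 was highest, HCT116 next, and COLO741 and HT29 had no order between them. The BIK difference of SW620 from HCT116 was 0.54 ± 0.13 (log2, SE; adjusted p from limma 0.0155, lost on leaving out any 1 of 2 arrays). Against the background level SW620 was at least 1.85-fold higher than COLO741 and than HT29 (adjusted p from limma on the measured values 4.30e-04 and 6.71e-04). The other 9 genes were above background on all 8 arrays.

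Line means spanned at least 1 log2 unit for 4 of the 10 genes and for 31.5% of all genes tested. For these 4 of the 10, the genes whose levels correlated best with theirs over the 8 arrays were sought among 5327 others of such span. The arrays share 4 lines, so the values only describe these lines. BCL2 was most like CDON and KDELR3 (Pearson r 0.992 and 0.990), and BCL2L1 most like PATJ and PRKCZ (0.999 and 0.996). PATJ was under background in COLO741, with a mean of 6.08, and had means of 10.30 to 11.27 in the other lines. BIK was most like RPGRIP1L and REP15 (0.991 and 0.991), and PMAIP1 most like ZFHX4 and PLAGL1 (0.994 and 0.988). The line means of REP15 were all under background, at 5.63 to 7.29. ZFHX4 had means under background in COLO741 (6.85) and HT29 (6.74). PLAGL1 had means of 11.02 in HCT116 and 8.64 in SW620 and was under background in COLO741 and HT29.

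Of 13 other BCL2 family genes, 12 had a value, and 10 of the 12 passed the F-test across lines, where 67.2% of all genes tested did. In COLO741 against the other 3 lines 5 of the 12 were called higher and 3 lower, where 23.7% and 26% of all genes tested were. Of the 10 genes above, 2 were called higher (BCL2, BAK1) and 5 lower (BCL2L1, BAX, BIK, PMAIP1, BCL2L11). The median difference was 0.16 for the 12 genes, -0.21 for the 10 and -0.04 over all genes tested. BNIP3, a mitochondrial protein of hypoxia and mitophagy, measured 12.38 and 11.96 in COLO741 and 12.28 and 12.30 in HCT116. In SW620 and HT29 BNIP3 lay between 6.64 and 7.25, under background. Its adjusted p from limma's F-test was 1.36e-06. Its relative BNIP3L measured 12.82 and 12.72 in COLO741, 10.61 and 10.91 in HT29 and 11.51 to 11.87 in the other lines, above background throughout.

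BCL2A1, a guard related to MCL1 in what it binds, measured 9.77 and 8.73 in COLO741 and 5.85 to 6.65 in the other lines, under background there (adjusted p from limma's F-test 0.00130). BCL2L15 measured 9.06 and 9.61 in SW620 and 8.11 and 8.29 in HT29, and lay under background in COLO741 and HCT116, at 6.14 to 6.55. BOK, a relative of BAX and BAK1, measured 10.52 and 10.55 in HT29 and 10.45 and 10.34 in HCT116 against 8.79 to 9.04 in COLO741 and SW620. HRK, a BH3-only gene, measured 11.12 and 10.94 in COLO741 and 9.58 to 10.50 elsewhere. BOK was lower in COLO741 than in the mean of the other 3 lines, by 0.99, and BNIP3L and HRK were higher there, all past limma's threshold.

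**Figure D4:**
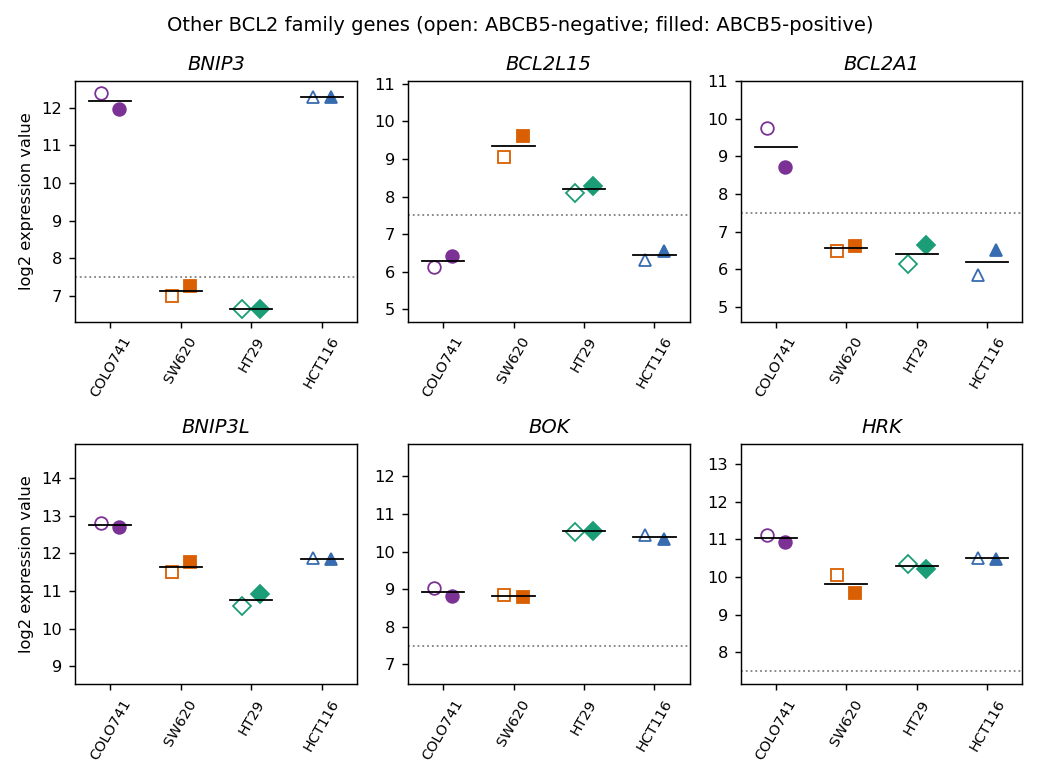
Log2 expression value (vertical axis) of 6 further BCL2 family genes in the 4 lines (horizontal axis), open symbols for ABCB5-negative, filled for ABCB5-positive, bars at the mean of both, dotted line at the background level of 7.499. BNIP3 is at 11.96 or more in COLO741 and HCT116 and under background in SW620 and HT29.

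Downstream of the pore, 15 of 18 listed genes of the mitochondrial apoptosis machinery had a value. Of the 15, 10 passed the F-test across lines, where 67.2% of all genes tested did. In COLO741 against the other 3 lines 5 were called higher and 5 lower, where 23.7% and 26% of all genes tested were. AIFM1, a mitochondrial flavoprotein, measured 12.82 and 12.91 in SW620 and 11.65 to 12.37 elsewhere. CASP9, the caspase of the apoptosome, measured 10.16 and 10.28 in SW620 and 9.07 to 9.46 elsewhere. CASP6, an executioner caspase, measured 10.32 and 10.24 in HT29 and at most 9.77 elsewhere, and VDAC3, a channel of the outer membrane, 12.69 and 12.68 in HT29 and 13.77 to 13.87 elsewhere.

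Of 12 listed regulators of the family, 11 had a value and all 11 passed the F-test across lines, where 67.2% of all genes tested did. Beside MITF, TP73, a transcription factor, measured 9.96 and 10.13 in HCT116, 9.22 and 9.22 in HT29 and 8.34 to 8.59 in the other lines. DDIT3, a factor of the stress response, measured 10.91 and 10.34 in COLO741 and 9.35 to 10.32 elsewhere, a call lost without the ABCB5-negative COLO741 array (adjusted p from limma's F-test 0.0596). FBXW7, which marks MCL1 for breakdown, measured 8.31 and 8.38 in COLO741 and 8.89 to 9.35 elsewhere. In COLO741 against the other 3 lines 3 regulators were called higher and 4 lower, where 23.7% and 26% of all genes tested were.

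Between the sorted populations, 0 of the 10 genes passed, and 0% of the 16910 genes tested passed with limma and the line as a block. The 2 genes with an unadjusted p under 0.05 were BAK1 and BIK, where 744 genes, or 4.4%, had one. BAK1 was lower on the array labelled ABCB5-positive in all 4 lines, farthest in COLO741 (by 0.43), then HCT116 (0.14), SW620 (0.13) and HT29 (0.11), and it was the only 1 of the 10 genes with 1 sign in all lines, where 13.4% of all genes tested had that. With the COLO741 pair turned, negative minus positive, as its ABCB5 transcript runs, BAK1 had signs both ways. BCL2, BCL2L1 and MCL1 were then the 3 genes with 1 sign (10.9% of all genes tested). BCL2 and BCL2L1 lay above 0 (means 0.16 and 0.07) and MCL1 below it (-0.08), with HT29 at only -0.0013 for MCL1. The BAK1 difference was -0.20 ± 0.15 (log2, SD, n = 4), with an unadjusted p from limma of 0.0364 and an adjusted p of 0.898. Without COLO741, whose ABCB5 transcript opposes its labels, it was -0.13 (adjusted p from limma 0.993), and with that pair turned 0.012.

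BIK was higher on the array labelled ABCB5-positive in 3 of 4 lines. HCT116 was at -0.01, HT29 at 0.11, COLO741 at 0.36 and SW620 at 0.41 for BIK, with a mean of 0.22 ± 0.20 (SD, n = 4; unadjusted p from limma 0.0454, adjusted 0.898). Those of COLO741 and HT29 come from arrays under background, and the largest comes from the SW620 pair, whose array labelled ABCB5-positive also carried more phagocyte and leukocyte markers. The part of those markers in the BIK difference was not tested. Without SW620 the BIK difference was 0.16, and without COLO741 it was 0.17. With the COLO741 pair turned the BIK difference was 0.04 ± 0.32 (SD, n = 4).

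PMAIP1 measured lower in 3 of 4 lines, from -0.34 in SW620 through -0.21 (HT29) and -0.12 (COLO741) to 0.09 in HCT116, with a mean of -0.14 ± 0.18 (SD, n = 4; adjusted p from limma 0.898). Without SW620 the PMAIP1 difference was -0.08, and without HCT116 it was -0.22. BBC3 measured -0.08 ± 0.15 and moved to -0.01 without SW620 and to -0.13 without HCT116. BCL2 measured -0.18 in COLO741 and 0.20, 0.15 and 0.11 in SW620, HT29 and HCT116, with a mean of 0.07 ± 0.17 that was 0.15 without COLO741 and 0.03 without SW620 (adjusted p from limma 0.916 over all lines). BCL2L1 measured 0.03 ± 0.08 with the same signs as BCL2 in each line. MCL1 (0.00 ± 0.11), BAX (-0.02 ± 0.08), BID (-0.01 ± 0.09) and BCL2L11 (-0.03 ± 0.20) had means near 0 and lines on both sides of it.

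The 95% intervals of the 10 differences between the populations lay between -0.39 and 0.43 on the log2 scale. Each interval is for 1 gene alone, with the pairs as labelled, so together they set no joint bound. The median over all genes tested was -0.0047 and the median size of a difference was 0.06 over all genes and 0.05 over the 10. All 10 proliferation markers had positive mean differences, as 48% of all genes tested did, and 6 of the 10 had an unadjusted p under 0.05. Their median difference per line ran from 0.09 (HCT116) to 0.50 (COLO741). With the COLO741 pair turned 6 of the 10 means were positive, and with COLO741 left out all 10 were. Their part in the values of the family was not tested. In the lists of other family genes, machinery and regulators 0 genes passed between the populations. The smallest unadjusted p of each list, in that order, belonged to BCL2L15 (0.31 ± 0.16, SD, n = 4; p 0.00723 from limma, adjusted 0.898), CYCS, cytochrome c (-0.25 ± 0.25, p 0.0492), and FOXO3 (0.13 ± 0.13, p 0.123). For BCL2L15 the COLO741 and HCT116 pairs were under background.

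**Figure D5:**
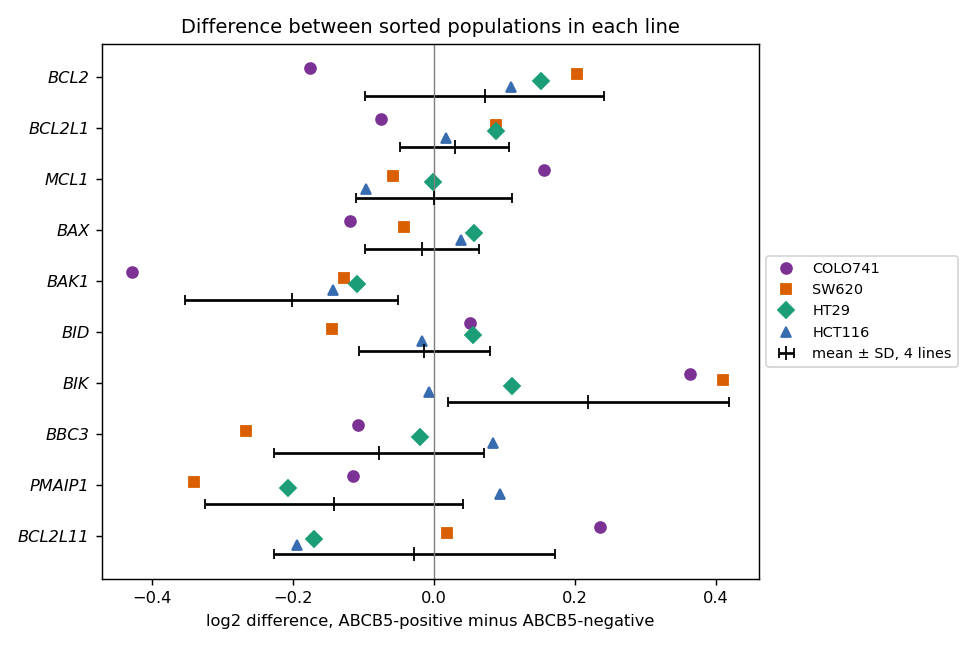
Log2 difference, array labelled ABCB5-positive minus array labelled ABCB5-negative (horizontal axis), for each of the 10 genes (vertical axis), 1 symbol per line, with the mean and SD over the 4 lines as a black bar. With the pairs as labelled, BAK1 is below 0 in all 4 lines, with COLO741 farthest at -0.43, which would be 0.43 with that pair turned, and the other genes have lines on both sides of 0.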

How the data were processed

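On each of 8 arrays the authors deposited a log2 value for 33297 probe sets. That the scale is log2 follows from the spread of the values, 2.99 to 15.24. Affymetrix Expression Console made them, per the submitters' processing notes, with the version, summarisation and normalization not given in the sources. Array medians lay between 8.03 and 8.10, and no further normalization was applied. The number of arrays limits the precision.

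Gene names came from the array's platform annotation, possibly old, and were updated by gene identifier to GRCh38.p14 (19429 of the 19460 probe sets naming 1 gene matched). The brightest probe set per gene was kept. Genes with a mean below 5.74, the median of the olfactory receptor probe sets, were left out (1507), which left 16910.

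One limma 3.58.1 model (R 4.3.3) held cell line and sorted population, with 3 residual and 3.44 prior degrees of freedom, two-sided tests and Benjamini-Hochberg adjustment over all genes tested. The line pairs the arrays because both populations come from the same line, and their deviations from the group means correlated at 0.927 to 0.959. The fitting code was first tested on simulated data.

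The named genes are the 10 members, per list up to 6 genes past the threshold across lines with a span of at least 1 log2 unit, the gene of smallest unadjusted p between populations per list, and the 2 most similar genes of each member with such a span. MDM2 falls outside this rule and was chosen after its values were seen. The members and lists were chosen with earlier results of these data known. Promoters are from RefSeq, GRCh38.p14, for 8 of the 10 genes; MCL1 and BIK were not matched. Both strands were searched for the motifs named. Some items of the lists and motifs are not reported here.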

Additional observations from a re-analysis of the deposited data

Results flagged for a closer look

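The 10 genes give 30 sets of 4 values (levels in each population, and differences, over the 4 lines). Of these, 5 held a value far from the other 3. The cutoff flags about 1 in 20 sets of independent, normally distributed values. These sets share lines and arrays, and the share flagged over all genes tested was not computed. The count of 5 is therefore not read against chance. BAX was highest in HT29 on both arrays, at 12.23 in the ABCB5-positive and 12.18 in the ABCB5-negative population. BAK1 was lowest in SW620 in the ABCB5-positive population, at 10.32, and BBC3 was lowest in SW620 in the ABCB5-negative population, at 8.76. The BAK1 difference between the populations of COLO741, -0.43, lay far from those of the other 3 lines.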

How the results depend on the processing

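Between the populations, 0 of the 10 genes and 0 of all genes tested passed with limma in every alternative, with the line as a random replicate block, with no replicate block (0 of the 10, and 27 genes at an unadjusted p under 0.05) and with each line left out. The number of genes passing the F-test across lines was 10 under each other scaling, filter and variance setting tried and for the model without the population, and 7 to 10 with a line or array left out, the lines left out in this test being settings chosen after seeing the data. In COLO741 against the other lines 6 to 7 genes passed, and in pairs of lines 27 to 40 calls were made. With all 8 arrays, 49.7% of all genes tested passed in COLO741 against the other lines, and 42.7% of gene-by-pair tests passed. With a line left out, 54.4% to 59% of all genes tested passed the F-test. Such shares under the other settings are not given here. Signs of small population differences turned. That of MCL1 was -0.028 with arrays centred on their median and ranged from -0.0516 (without COLO741) to 0.0325 (without HCT116) over the lines left out in turn. That of BAX ranged from -0.0409 to 0.0179, that of BID from -0.0368 to 0.0296 and that of BCL2L11 from -0.1152 to 0.0279. With the COLO741 pair turned, a setting chosen after seeing the data, the differences of MCL1, BAX and BAK1 were -0.0777, 0.0433 and 0.0124. The difference of MCL1 in COLO741 against the other lines ranged from -0.1975 to 0.0102 over the arrays left out. Leaving out an array or line means fewer samples, and beyond that the cause was not tested. BIK was under background on 4 of 8 arrays, which limits its differences.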

Other observations

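The 5 tested genes on either side of a member in the annotation, 10 in all, give the levels around it on its chromosome. PMAIP1 in HCT116 exceeded the mean of the other 3 lines by 2.49, while its 10 neighbours on chromosome 18 had a median of 0.09 and 7 of them were higher. BCL2, also on chromosome 18, exceeded the other lines by 1.24 in COLO741, with a median of -0.13 over its neighbours. BCL2L1 on chromosome 20 was at -1.41 in COLO741, with -0.07 over its neighbours, and BAX on chromosome 19 at 0.94 in HT29, with 0.02. BAK1 on chromosome 6 was at -0.71 in SW620, and its neighbours had a median of -0.27 there, with 0 of 10 higher. BCL2L11 on chromosome 2 was at -0.71 in COLO741, and its neighbours had a median of -0.36 there, with 1 of 10 higher. BIK on chromosome 22 was at 0.94 in SW620, with -0.08 over its neighbours. The part of neighbouring genes in the levels of the members was not tested.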
